A study of Homo sapiens with 20 samples.

Results

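The genes BAHCC1, POU3F3, PPP2R2C, CHST13 and NES were followed through 4 populations of the human endometrial adenocarcinoma line HEC-1A, as 5 of the 12558 genes in the count table. They were chosen by their measured values, as neural or chromatin genes low in CD133+ Control and high in CD133+ EIF4G2KD cells, so their differences between those populations are given as a description with no test. All 5 passed the filter on low counts that left 10338 genes for testing. Every line carried a lentiviral pLKO.1-puro shRNA and was selected with puromycin. Control cells carry the label shNT and, per the study's methods, expressed an shRNA to GFP, and EIF4G2KD cells a single shRNA to EIF4G2 (also named DAP5), so no other shRNA or knock-down line could be compared. Both lines were separated by the surface marker CD133 with magnetic beads and then sorted by flow cytometry at 15000 cells a sample. This gave CD133- Control (5 libraries), CD133- EIF4G2KD (5), CD133+ Control (4, since the third failed the authors' quality check and has no counts) and CD133+ EIF4G2KD (5). The labels number 5 replicates but do not tie them to separate cultures, so p-values measure only the spread between these libraries.

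As background, EIF4G2 is a translation initiation factor that supports the translation of selected mRNAs, and CD133 (encoded by PROM1) is a membrane glycoprotein used as a marker of stem-like tumor cells. BAHCC1 carries a BAH domain that binds histone H3 trimethylated at lysine 27, the mark of Polycomb repression. POU3F3 (BRN1) is a POU homeodomain transcription factor of the developing brain and kidney, PPP2R2C is a regulatory B subunit of the phosphatase PP2A that is expressed mainly in brain, CHST13 is a Golgi enzyme that sulfates chondroitin, and NES encodes nestin, the intermediate filament protein of neural progenitors.

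The genes did not share 1 pattern. BAHCC1, POU3F3 and PPP2R2C had their lowest mean in CD133+ Control, intermediate means in both CD133- populations and their highest in CD133+ EIF4G2KD. Of these BAHCC1 was at 4.64 CPM (the counts of a gene relative to the TMM-scaled total of its library) or less in 3 populations and was at 27.4 to 38.4 CPM in the 5 CD133+ EIF4G2KD libraries, above the other 14 libraries. CHST13 and NES had similar levels in both Control populations, so the description "low in CD133+ Control" did not hold for them relative to CD133- cells. The ranges of NES in CD133+ Control and CD133+ EIF4G2KD overlapped, and NES cannot be called switched on from these values.

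The promoters of 3 genes are shown, those of BAHCC1 and POU3F3 because their levels had the same order across populations and each has a single RefSeq start, and that of NES for contrast. PPP2R2C had the same order, but its 5 annotated starts gave no single promoter to show. Each is the RefSeq sequence (GRCh38.p14) from 250 bases before to 50 after the annotated start, read 5′ to 3′ on the strand of the gene, and capitals mark the motif CCAAT or its reverse complement ATTGG. BAHCC1 lies on the plus strand at chr17:81395207-81395506, POU3F3 on the plus strand at chr2:104853865-104854164, and NES on the minus strand at chr1:156677358-156677657. The POU3F3 window lies inside the GENCODE span of the gene (104853287 to 104858574), so RefSeq and GENCODE place its start differently.
BAHCC1: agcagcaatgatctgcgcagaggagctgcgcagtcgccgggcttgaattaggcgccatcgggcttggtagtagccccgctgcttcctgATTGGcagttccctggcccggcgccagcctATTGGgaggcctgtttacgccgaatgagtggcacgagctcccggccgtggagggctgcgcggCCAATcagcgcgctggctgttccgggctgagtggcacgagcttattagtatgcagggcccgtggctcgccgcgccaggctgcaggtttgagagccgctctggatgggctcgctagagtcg
POU3F3: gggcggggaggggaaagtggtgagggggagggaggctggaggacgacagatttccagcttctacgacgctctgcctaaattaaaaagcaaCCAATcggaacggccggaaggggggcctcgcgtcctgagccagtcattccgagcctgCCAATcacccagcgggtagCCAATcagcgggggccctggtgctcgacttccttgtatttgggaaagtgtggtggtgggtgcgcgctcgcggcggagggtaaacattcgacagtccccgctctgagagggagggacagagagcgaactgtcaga
NES: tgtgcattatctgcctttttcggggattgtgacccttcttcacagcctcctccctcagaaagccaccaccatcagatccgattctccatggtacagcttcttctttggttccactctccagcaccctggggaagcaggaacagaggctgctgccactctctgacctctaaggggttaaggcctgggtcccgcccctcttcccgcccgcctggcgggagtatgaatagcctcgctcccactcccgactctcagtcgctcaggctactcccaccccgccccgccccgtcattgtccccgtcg
The BAHCC1 and POU3F3 promoters each held 3 matches to CCAAT on either strand and CHST13 held 2, while NES held 0. Of the 5 annotated PPP2R2C promoters 1 held 2 matches and the others held 0. Among 35116 RefSeq promoters of this length, 34.6% held at least 1 match, 10.8% at least 2 and 3.26% at least 3. CCAAT was searched after the sequences had been seen, so the counts describe these windows only. The octamer ATGCAAAT, a motif bound by POU factors, had 0 matches on either strand in the promoters of the 5 genes and was found in 1.77% of all promoters. The GC content was 65.3% in the BAHCC1 promoter, 61.3% in POU3F3, 68.7% in CHST13 and 60.3% in NES, and the PPP2R2C promoters ranged from 52.3% to 85.3%. MARS-seq reads the 3′ ends of transcripts, so it does not show which of these starts was used.

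The libraries held 1679447 to 5234905 counts (median 3047418), and 3 counts, the limit allowed by a count of 0, corresponded to 1.16 CPM in CD133+ Control replicate 2. EIF4G2 mRNA ranged from 193 to 360 CPM in CD133- Control and from 36.8 to 164 in CD133- EIF4G2KD, and from 275 to 377 CPM in CD133+ Control and 130 to 350 in CD133+ EIF4G2KD. The targeted mRNA therefore did not overlap between the CD133- groups but did between the CD133+ groups, where the log2 fold change was -0.45 (SE 0.34, edgeR quasi-likelihood adjusted p = 0.523). In CD133- cells it was -1.48 (SE 0.33, adjusted p = 0.123). PROM1 ranged from 0.428 to 3.31 CPM in the CD133- libraries and from 11.6 to 26.4 in the CD133+ libraries. Epithelial markers (9 of 9 measured) summed to at least 4710 CPM in every library, while the only neuronal marker of 6 measured, SYP, reached at most 2.05 CPM. RBFOX3, DCX, STMN2, SNAP25 and ELAVL4 were not among the genes of the count table, so they have no level here. The stromal and endothelial markers (6 each) were not in the table either. Of 6 leukocyte markers only CD68 was in it, at 3.22 CPM or less. Every gene in the table reached at least 6 counts in some library, so absence does not show a level of 0. Next, 4 libraries stood apart on the first principal component (24.95% of the variance), namely CD133- EIF4G2KD replicates 2, 4 and 5 and CD133+ EIF4G2KD replicate 3, and they had EIF4G2 at 36.8 to 130 CPM. Without them the log2 fold changes of CD133+ EIF4G2KD over CD133+ Control were 6.24 for BAHCC1, 3.78 for POU3F3, 3.40 for PPP2R2C, 1.64 for CHST13 and 0.95 for NES.

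**Figure D1:**
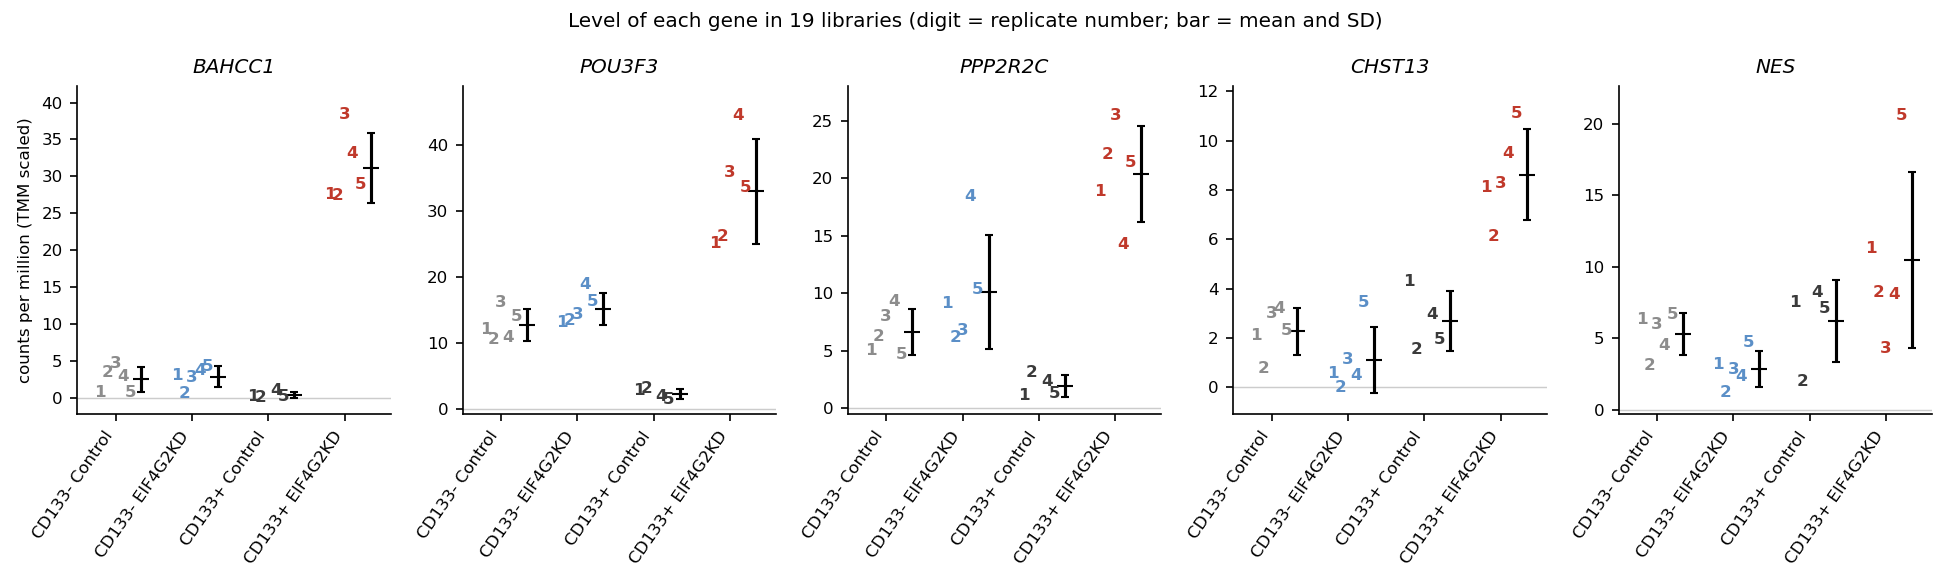
Level of each gene in CPM (vertical axis, linear) in the 19 libraries, grouped by population. Digits are replicate numbers, and the horizontal tick with its bar is the mean and SD. BAHCC1 lies between 27.4 and 38.4 CPM in CD133+ EIF4G2KD and at or below 4.64 CPM elsewhere, while the NES ranges overlap.

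BAHCC1 gave 1, 0, 3 and 1 counts in CD133+ Control replicates 1, 2, 4 and 5, which is 0.215, 0, 0.985 and 0.243 CPM. In CD133+ EIF4G2KD its levels were 27.5, 27.4, 38.4, 33.1 and 28.9 CPM. In CD133- Control they were 0.788, 3.48, 4.64, 2.88 and 0.77 CPM, and in CD133- EIF4G2KD 2.98, 0.61, 2.80, 3.69 and 4.28 CPM. Every CD133+ EIF4G2KD library was above every other library, and both CD133- populations overlapped each other and the highest CD133+ Control library. In the Control line, BAHCC1 in CD133- over CD133+ cells had a log2 fold change of 2.64 (SE 0.67, 95% interval 1.25 to 4.04), and 3.51 without CD133+ Control replicate 4. The means were 31.1 ± 4.71 CPM (SD, n = 5) in CD133+ EIF4G2KD and 0.361 ± 0.43 (n = 4) in CD133+ Control, a log2 fold change of 6.32 (SE 0.54) that ranked 1 of 10338 genes from the top. Because CD133+ Control held only 5 BAHCC1 counts in all, the ratio of pooled CPM was 88.4 with a counting interval from 37.6 to 273, which covers counting error only. It was 7.17 on the log2 scale of the fit without CD133+ Control replicate 4, which held 3 of those 5 counts. In the knock-down line, the log2 fold change of CD133- EIF4G2KD (2.87 ± 1.39 CPM, SD, n = 5) over CD133+ EIF4G2KD was -3.37 (SE 0.38).

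POU3F3 measured 2.79, 3.10, 1.97 and 1.46 CPM in CD133+ Control and 25.1, 26.1, 35.9, 44.5 and 33.6 CPM in CD133+ EIF4G2KD. The CD133- Control libraries gave 12.1, 10.5, 16.2, 10.9 and 14.1 CPM and the CD133- EIF4G2KD libraries 13.2, 13.4, 14.3, 18.9 and 16.3 CPM. The CD133+ Control libraries were all below the CD133- libraries, and the CD133+ EIF4G2KD libraries were all above them, while both CD133- populations overlapped. The log2 fold change of CD133+ EIF4G2KD over CD133+ Control was 3.82 (SE 0.26), and that of CD133- Control over CD133+ Control was 2.45 (SE 0.26). Thus the level in CD133+ EIF4G2KD was 33.0 ± 7.90 CPM (SD, n = 5), against 12.8 ± 2.41 (n = 5) in CD133- Control and 2.33 ± 0.752 (n = 4) in CD133+ Control. POU3F3 overlaps a long noncoding RNA on the same strand that was not analysed here, so reads of that transcript could be counted with it.

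PPP2R2C measured 1.07, 3.10, 2.30 and 1.22 CPM in CD133+ Control and 18.9, 22.1, 25.5, 14.2 and 21.4 CPM in CD133+ EIF4G2KD. In CD133- Control it gave 4.99, 6.20, 7.96, 9.28 and 4.62 CPM, and in CD133- EIF4G2KD 9.14, 6.10, 6.71, 18.4 and 10.3 CPM. CD133+ Control was again below every CD133- library, but CD133- EIF4G2KD replicate 4, a library that stood apart, reached into the CD133+ EIF4G2KD range. The log2 fold change of CD133+ EIF4G2KD over CD133+ Control was 3.48 (SE 0.37), and that of CD133- Control over CD133+ Control was 1.84 (SE 0.39).

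CHST13 measured 4.30, 1.55, 2.96 and 1.95 CPM in CD133+ Control and 8.10, 6.13, 8.25, 9.46 and 11.1 CPM in CD133+ EIF4G2KD. CD133- Control gave 2.10, 0.774, 2.98, 3.20 and 2.31 CPM. CD133- EIF4G2KD gave 0.559, 0, 1.12, 0.461 and 3.42 CPM, from 16 counts in all, and the count of 0 in replicate 2 allows up to 1.83 CPM. The CD133+ EIF4G2KD libraries lay above all others, and the other 3 populations overlapped. The log2 fold change of CD133+ EIF4G2KD over CD133+ Control was 1.63 (SE 0.42), while CD133- Control over CD133+ Control was -0.26 (SE 0.47, 95% interval -1.23 to 0.71). CHST13 overlaps C3orf22 on the opposite strand, and whether the counting used strand is not given in the sources used here.

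NES measured 7.52, 1.94, 8.21 and 7.06 CPM in CD133+ Control and 11.3, 8.17, 4.31, 8.04 and 20.6 CPM in CD133+ EIF4G2KD. CD133- Control gave 6.30, 3.10, 5.97, 4.48 and 6.67 CPM, and CD133- EIF4G2KD gave 3.17, 1.22, 2.80, 2.30 and 4.71 CPM. Replicates 1 and 5 of CD133+ EIF4G2KD were above the CD133+ Control range and replicates 2, 3 and 4 lay within it. Replicates 1 and 5 were also the highest in both CD133- populations, while replicate 4 was the highest in CD133+ Control, which has no replicate 3. The log2 fold change of CD133+ EIF4G2KD over CD133+ Control was 0.76 (SE 0.39, 95% interval -0.06 to 1.57), and it ranged from 0.34 to 0.95 when single libraries were left out. In CD133- cells the mean was 2.84 ± 1.28 CPM (SD, n = 5) with the knock-down and 5.30 ± 1.49 (n = 5) without it.

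In all, 4 of the 5 genes had every CD133+ EIF4G2KD library above every CD133+ Control library, as did 4.46% of the 10338 genes tested. In this comparison 5.99% of tested genes were called (adjusted p below 0.05, absolute log2 fold change above 0.58 and mean normalized count above 10). Both shares stand as background only, since the genes were picked on this contrast. BAHCC1, POU3F3, PPP2R2C, CHST13 and NES ranked 1, 7, 10, 58 and 423 from the top by fold change. With a bulk measurement, more cells of a type and more RNA per cell cannot be told apart.

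**Figure D2:**
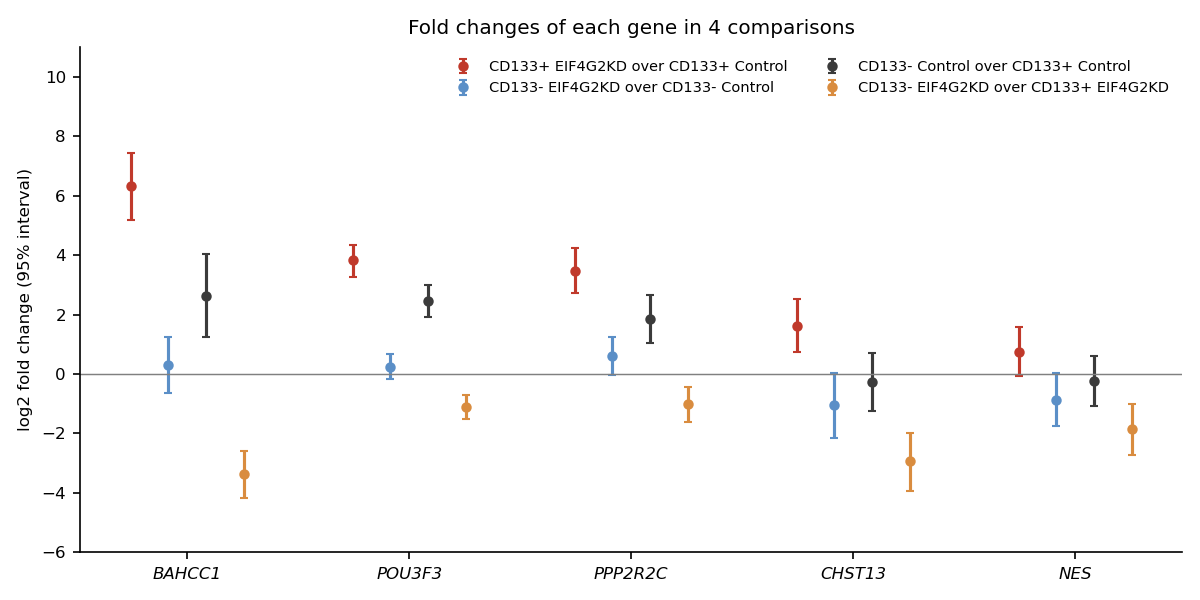
Log2 fold changes of the 5 genes in 4 comparisons of populations, with 95% intervals from the edgeR fit. In CD133- EIF4G2KD over CD133- Control all 5 intervals include 0. It is the only comparison tested, and only for POU3F3, PPP2R2C and NES, while BAHCC1 and CHST13 are a description there. The CD133+ comparison runs from 0.76 for NES to 6.32 for BAHCC1.

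The CD133- libraries were compared next, since the CD133+ contrast that chose the genes did not include them. BAHCC1 and CHST13 entered this test only through their counts in CD133+ cells, because with only the CD133- populations neither passed the filter on low counts. They held 1 to 16 and 0 to 10 counts per CD133- library, so their values are given as a description. POU3F3, PPP2R2C and NES passed that filter and were not called in CD133- EIF4G2KD over CD133- Control. By edgeR their unadjusted p-values were 0.24, 0.0556 and 0.0573. With BAHCC1 and CHST13 counted in, 0 of 5 genes had an unadjusted p below 0.05 by edgeR and 3 by DESeq2. The count was 1 by limma-voom and 3 by edgeR with the replicate block, and 0 were called by any of these. Such counts are a description, since BAHCC1 and CHST13 entered only through CD133+ cells. The share of all genes below 0.05 is given here for edgeR alone. The counts by the other fits therefore have no background beside them and are not read as a result. By edgeR's quasi-likelihood test, POU3F3 had a log2 fold change of 0.24 (95% interval -0.18 to 0.66, adjusted p = 0.66), PPP2R2C 0.61 (-0.02 to 1.24, adjusted p = 0.483) and NES -0.86 (-1.76 to 0.03, adjusted p = 0.487). BAHCC1 gave 0.30 (-0.63 to 1.24) and CHST13 -1.05 (-2.15 to 0.05). For POU3F3, PPP2R2C, BAHCC1 and CHST13 the upper bound in CD133- cells was below the lower bound in CD133+ cells, while the NES intervals overlapped. That gap was not tested, because the CD133+ values chose the genes. The mean levels of CHST13 and NES were lower with the knock-down in CD133- cells and higher with it in CD133+ cells. The CHST13 value was -1.83 without CD133- EIF4G2KD replicate 5 and -1.49 without the 4 libraries that stood apart. The call rule took 0.00967% of the 10338, which was F2R, named after its value was seen (log2 fold change -2.24, edgeR adjusted p = 0.0462), although 1092 genes had an unadjusted p below 0.05. With the replicate block 80 genes were called, with DESeq2 39 and with limma-voom 0.

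The chromosomal surroundings were examined next, with positions from GENCODE 44 (GRCh38) for 9959 of the 10338 genes. BAHCC1 lies on chromosome 17 (81395457 to 81466331, plus strand) and POU3F3 on chromosome 2 (104853287 to 104858574, plus strand). PPP2R2C lies on chromosome 4 (6320578 to 6563600, minus strand), CHST13 on chromosome 3 (126524155 to 126543291, plus strand) and NES on chromosome 1 (156668763 to 156677407, minus strand). PANTR1, a long noncoding RNA gene on the opposite strand (104764932 to 104853183), begins 103 bases from the GENCODE start of POU3F3 and is transcribed away from it. The RefSeq start of POU3F3, used for the promoter, lies further from PANTR1. PANTR1 gave 1, 0, 0 and 1 counts in the CD133+ Control libraries and 15, 11, 18, 8 and 10 in CD133+ EIF4G2KD, a log2 fold change of 4.61 (SE 0.53, edgeR adjusted p = 1.39e-05). The ratio of pooled CPM was 30.4 with a counting interval from 8.08 to 257. It did not reach the mean normalized count that a call requires. In CD133- cells PANTR1 gave 4, 3, 3, 2 and 4 counts in Control and 8, 6, 6, 7 and 7 in EIF4G2KD, and the log2 fold change of 1.27 did not pass the test (SE 0.40, edgeR adjusted p = 0.316). MRPS9, a mitochondrial ribosomal protein gene on the other side of POU3F3, had log2 fold changes of -0.15 in CD133+ and -0.235 in CD133- cells.

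For BAHCC1, PPP2R2C and CHST13, the nearest tested genes had smaller values than the genes themselves. In CD133+ cells SLC38A10, an amino acid transporter gene, and ACTG1, cytoplasmic gamma actin, flanked BAHCC1 with log2 fold changes of 0.62 and 0.57 (edgeR adjusted p = 0.00819 and 0.0198), against 6.32 for BAHCC1 itself. WFS1 and MAN2B2, a lysosomal mannosidase gene, flanked PPP2R2C with 0.28 and 0.96 (edgeR adjusted p = 0.401 and 0.000618). ZXDC and TXNRD3, a thioredoxin reductase gene, flanked CHST13 with 0.17 and 0.31 (adjusted p = 0.624 and 0.456). Within 5000000 bases the median log2 fold change was 0.02 over 84 genes around BAHCC1, 0.14 over 26 around POU3F3, 0.08 over 45 around PPP2R2C and 0.04 over 56 around CHST13.

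The surroundings of NES had higher values. Its flanking genes NAXE, an NAD(P)HX epimerase gene, and CRABP2, a retinoic acid binding protein gene, gave log2 fold changes of 0.80 (SE 0.11, edgeR adjusted p = 0.000111) and 0.99 (SE 0.24, adjusted p = 0.0118) in CD133+ cells. The median over the 113 tested genes within 5000000 bases of NES was 0.49, with 33 called higher and 1 lower. In CD133- cells the median was 0.07. The higher values extended over the long-arm side of chromosome 1. After position 125000000, a limit set after seeing the data, 445 genes had a median of 0.499 in the CD133+ comparison, and 102 (22.9%) were called higher and 4 lower. Before that position the median of 574 genes was 0.007 (9 called higher, 13 lower), and on all other chromosomes the median of 8940 genes was -0.007 (151 higher, 317 lower). In each CD133+ EIF4G2KD library the median log2 difference of these 445 genes from the CD133+ Control mean exceeded that of the other chromosomes, by 0.528, 0.486, 0.428, 0.531 and 0.549. In the other 14 libraries this excess lay between -0.028 and 0.099, so the groups did not overlap. The value of NES, 0.76 with an SE of 0.39, lay within 1 SE of the median of its side of the chromosome. DNA copy number was not measured, and the part of the shift in the NES values was not tested.

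**Figure D3:**
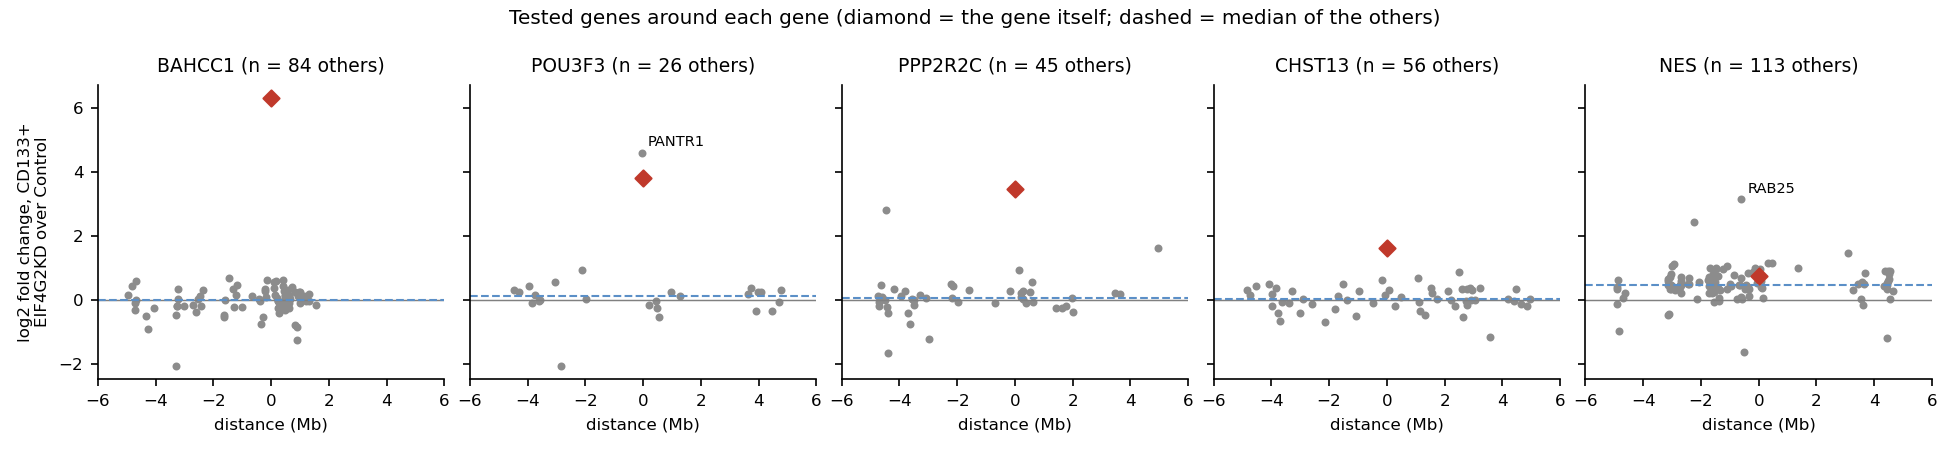
Log2 fold change of CD133+ EIF4G2KD over CD133+ Control (vertical axis) for tested genes within 5000000 bases of each of the 5 genes, against the distance between gene midpoints in Mb. The diamond is the gene itself and the dashed line the median of the others. NES (0.76) sits among its 113 neighbors, whose median is 0.49, while BAHCC1, POU3F3 and PPP2R2C lie far above their medians, with PANTR1 beside POU3F3 at 4.61.

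Across the 19 libraries, the Pearson correlation of log2 CPM (prior count 2) was 0.833 between BAHCC1 and POU3F3, 0.881 between BAHCC1 and PPP2R2C, 0.919 between POU3F3 and PPP2R2C, and 0.826 between CHST13 and NES. It was 0.661 between BAHCC1 and CHST13 and 0.448 between BAHCC1 and NES. CHST13 gave 0.351 with POU3F3 and 0.355 with PPP2R2C, and NES gave 0.151 and 0.132. These values describe 19 libraries of 4 populations. The parts that come from population means and from differences between libraries of a population were not separated.

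Genes with the most similar pattern to each were taken as the 3 highest Pearson correlations. For BAHCC1 they were the long noncoding RNA CRNDE (0.960), the retinaldehyde dehydrogenase gene ALDH1A1 (0.957) and POF1B, an actin-binding protein gene (0.927). The mean level of CRNDE was 24.5, 25.1, 12.4 and 113 CPM in CD133- Control, CD133- EIF4G2KD, CD133+ Control and CD133+ EIF4G2KD, and that of ALDH1A1 was 41.4, 46.8, 24.2 and 124 CPM. POF1B gave 1 count in all CD133+ Control libraries together and 66 in CD133+ EIF4G2KD. For POU3F3 they were the small GTPase gene RAB25 (0.957), the cardiac troponin gene TNNI3 (0.930) and its neighbor PANTR1 (0.895). RAB25 had the same order of means as POU3F3, while in TNNI3 the CD133- populations were in the other order. RAB25 gave 63.5, 67.0, 19.8 and 177 CPM in that order of populations and TNNI3 gave 19.4, 18.5, 5.52 and 55.1 CPM. RAB25 (0.930), ALDH1A1 (0.917) and TNNI3 (0.891) were also the 3 closest to PPP2R2C. RAB25 lies among the genes within 5000000 bases of NES, and its log2 fold change of 3.15 was the highest there.

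For CHST13 the closest genes were the TNF receptor family gene CD40 (0.925), the innate immune adaptor gene STING1 (0.886) and the postsynaptic scaffold gene DLG4 (0.883). CD40 had mean levels of 27.9, 19.4, 29.1 and 52.2 CPM in the same order of populations, which is also the order of CHST13. For NES they were the F-box gene FBXL12 (0.859), EMP3 (0.858) and CAMK2N2 (0.850), and their CD133+ log2 fold changes of 0.17, 0.12 and 0.19 were small. Under Spearman correlation 2, 2, 1, 1 and 2 of the 3 genes were the same for BAHCC1, POU3F3, PPP2R2C, CHST13 and NES.

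**Figure D4:**
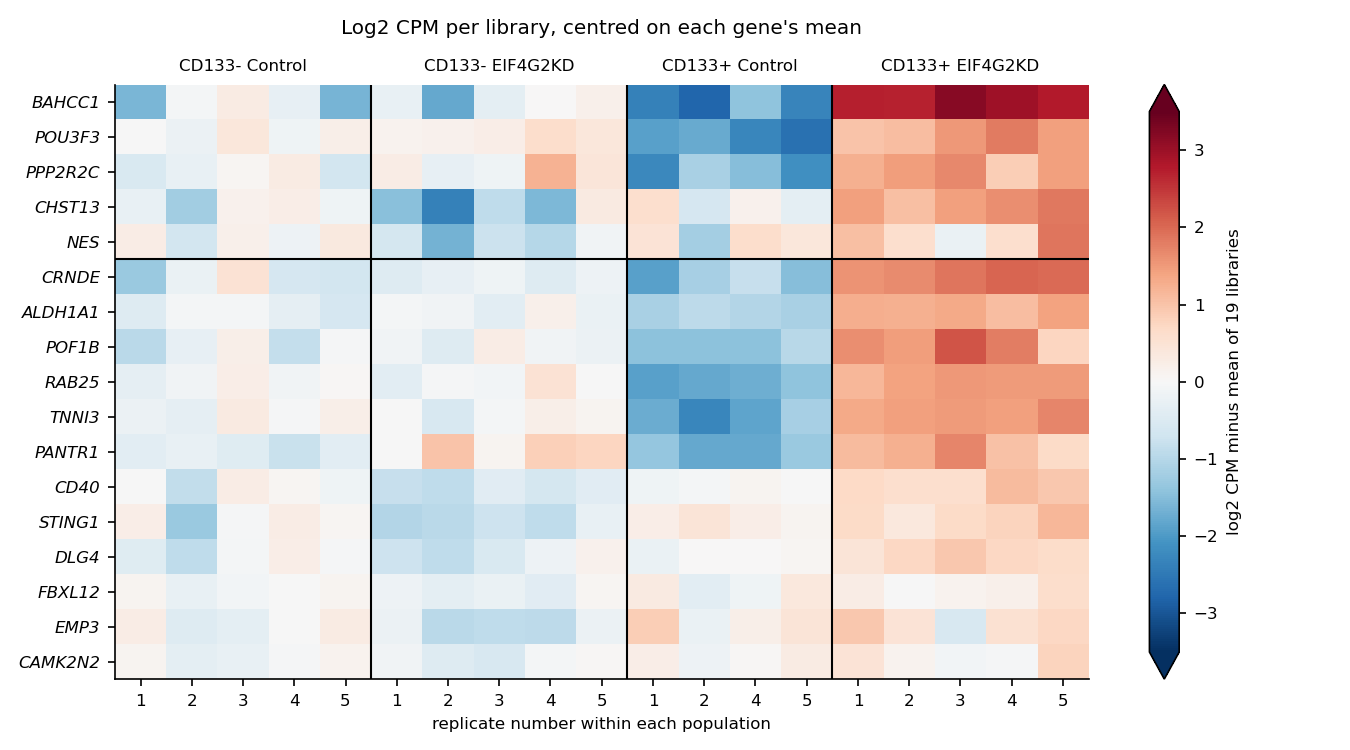
Log2 CPM per library, centred on the mean of each gene over 19 libraries (color), for the 5 genes (above the line) and the genes with the most similar patterns (below it), with libraries in columns by population and replicate number. By mean level, the first 3 rows are lowest in CD133+ Control and highest in CD133+ EIF4G2KD, as are CRNDE, ALDH1A1, POF1B, RAB25, TNNI3 and PANTR1. Single CD133+ Control libraries of BAHCC1 and CRNDE overlap the CD133- libraries.

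No close relative of the 5 genes that could be tested was called by edgeR. TNRC18, the nearest relative of BAHCC1, had log2 fold changes of 0.10 (SE 0.22, edgeR adjusted p = 0.874) in CD133+ and 0.55 (SE 0.20, adjusted p = 0.378) in CD133- cells. PPP2R2D, another B subunit of PP2A, gave -0.54 (SE 0.34, edgeR adjusted p = 0.429) in CD133+ cells, CHST14, a dermatan sulfotransferase gene, 0.39 (SE 0.34, adjusted p = 0.598), and the intermediate filament gene SYNM -0.55 (SE 0.32, adjusted p = 0.363). PPP2R2A did not pass the filter on low counts, with mean levels of 1.26 to 2.29 CPM. POU3F1, POU3F2, POU3F4, PPP2R2B, CHST11, CHST12, VIM and INA were not among the genes of the count table and could not be tested.

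The wider families were described by their counts of called genes. In CD133- EIF4G2KD over CD133- Control, edgeR called 0 genes of any of the 6 lists, as did DESeq2 and limma-voom, and between 0 and 4 genes of a list had an unadjusted p below 0.05. Over all genes edgeR called 1, DESeq2 39 and limma-voom 0, and 1092 of the 10338 tested had an unadjusted p below 0.05 by edgeR. With so few calls, 0 in a list is not a result about that family. In CD133+ EIF4G2KD over CD133+ Control, where 5.99% of all genes were called and the median log2 fold change of all genes was 0.01, the lists held 0 to 2 called genes each. There 2040 of the 10338 genes tested had an unadjusted p below 0.05 by edgeR. Over all genes DESeq2 called 694 and limma-voom 801. Of 41 tested BAH domain and Polycomb genes 1 was called, the histone methyltransferase gene ASH1L, which was higher (18.3 ± 3.09 CPM, n = 4, to 35.9 ± 7.89, n = 5, log2 fold change 0.98, edgeR adjusted p = 0.00605), and the list median was 0.01. Of 4 tested POU genes 0 were called by edgeR and 1 by limma-voom, 1 had an unadjusted p below 0.05, and the list median was -0.33. Of 24 tested PP2A subunits and regulators 1 was called, TIPRL, a regulator of PP2A-type phosphatases, with a log2 fold change of 1.00 (SE 0.21, edgeR adjusted p = 0.00488) and a list median of -0.07. ASH1L and TIPRL both lie on chromosome 1 after position 125000000, the stretch with the shift described for NES, and the part of that shift in their values was not tested.

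Of 18 tested sulfotransferase and chondroitin sulfate genes edgeR, DESeq2 and limma-voom each called 0, and the list median was 0.18. By edgeR 5 of these 18 had an unadjusted p below 0.05, beside 2040 of all 10338 genes tested. Of 6 tested intermediate filament genes other than keratins 1 was called, the lens filament gene BFSP1 (26.5 ± 6.18 CPM, n = 4, to 51.2 ± 12.7, n = 5, log2 fold change 0.95, edgeR adjusted p = 0.0201), and the list median was -0.05. That call was lost, leaving 0, without any 1 of CD133+ Control replicates 1, 4 and 5 or CD133+ EIF4G2KD replicates 2 and 4. Of 11 tested neural progenitor and neuronal genes, from 46 listed, ENO2, the neuronal enolase, was higher (log2 fold change 0.71, edgeR adjusted p = 0.00972) and LHX2, a forebrain homeobox factor, was lower (-1.08, adjusted p = 0.046), with a list median of -0.05. LHX2 was at 2.69 ± 1.06 CPM (SD, n = 5) in CD133+ EIF4G2KD, and only 1 gene of the list was called without any 1 of CD133+ Control replicates 1, 4 and 5 or CD133+ EIF4G2KD replicates 2, 3, 4 and 5.

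**Figure D5:**
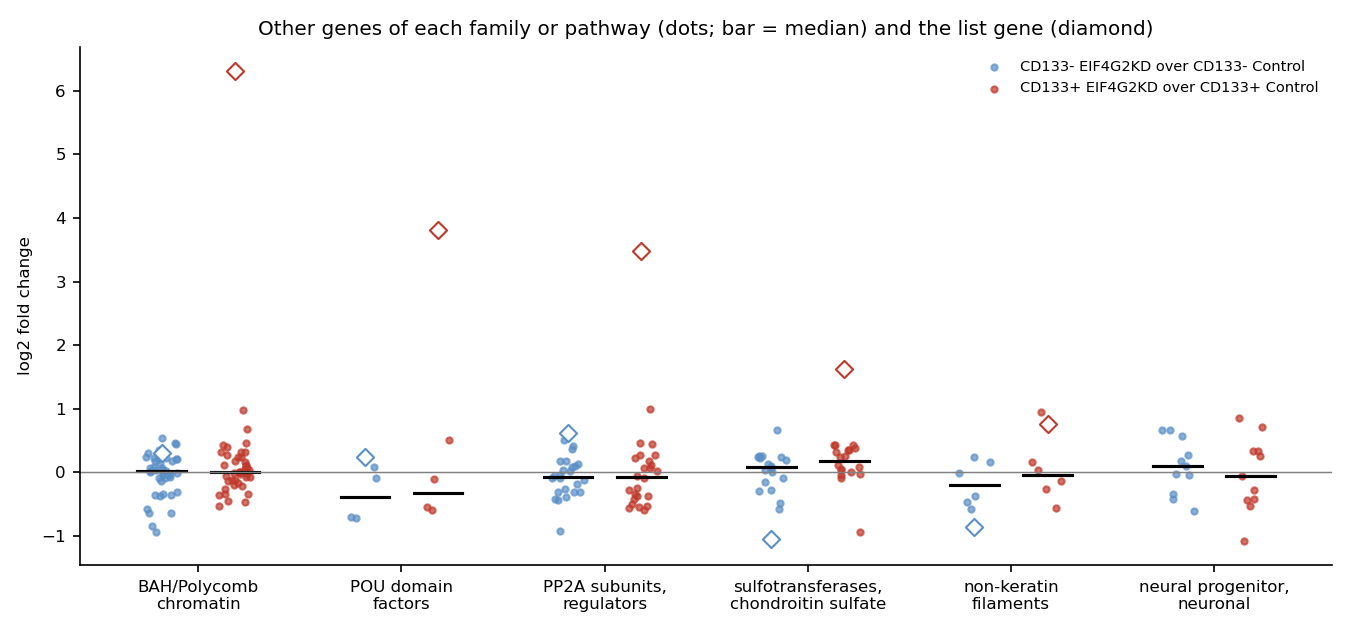
Log2 fold changes of the tested genes of 6 family or pathway lists (dots) in both knock-down comparisons, with the median of each list (bar) and the gene that the list was built around (open diamond, none for the neural list). In CD133+ cells the dots lie between -1.08 and 1.00 while the diamonds of BAHCC1, POU3F3 and PPP2R2C lie at 6.32, 3.82 and 3.48.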

How the data were processed

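Bulk MARS-seq libraries of sorted HEC-1A populations were analysed. Per the submitters' processing notes, cutadapt, STAR (version 2.4.2a) and HTSeq were the tools of trimming, alignment and counting, hg38 and mm10 are both named as builds, and reads fall at transcript 3′ ends. The raw counts of each gene that the authors deposited were used for all tests. The authors also deposited a normalized signal, the same counts divided by DESeq2 size factors, and its mean entered only the call rule. Tables of the authors' own comparisons (fold changes and p-values) were not used.

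Genes were filtered (edgeR 4.0.16 filterByExpr, minimum count 10, minimum total 15), scaled by TMM and fitted with 1 quasi-likelihood model holding a mean for each of 4 populations over 19 libraries. P-values were adjusted over 10338 genes by the Benjamini-Hochberg method. SE is the absolute log2 fold change over the square root of F. R 4.3.3, limma 3.58.1, DESeq2 1.42.0, Python 3.11.15 and GENCODE 44 were used, and the fit was tested on simulated data. Alternatives were DESeq2, limma-voom, RLE scaling, no filter, a replicate block, 2 populations alone and each library left out. Named genes were the 5 genes, EIF4G2 and PROM1, their closest relatives, up to 4 called genes a list, the 3 most correlated genes and the nearest tested genes. The members and lists were chosen with earlier results of these data known. None of the 36 pairs of libraries within a population were duplicates (pairs across populations were not checked), and intervals of counts cover counting error only, since reads from amplified libraries are not independent molecules.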

Additional observations from a re-analysis of the deposited data

Results flagged for a closer look

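The effect of the knock-down was compared between CD133+ and CD133- cells for BFSP1, a lens gene of the list of non-keratin intermediate filaments. Its log2 fold change in CD133+ cells exceeded that in CD133- cells by 1.42 (edgeR interaction test over all genes, adjusted p = 0.037). In all, 9 genes outside the 5 were checked in this way. BFSP1 was named because it was called in CD133+ cells, and that call was lost in 5 of 9 fits without single libraries. For BAHCC1, POU3F3, PPP2R2C, CHST13 and NES, the 20 groups of libraries were checked with Dixon's test (the gap of the highest or lowest library to the next, relative to the range, at the 95% critical value), and 0 passed it. Single libraries still carried weight below that limit. CHST13 in CD133- EIF4G2KD replicate 5 was at 3.42 CPM, and the log2 fold change over CD133- Control went from -1.05 to -1.83 without it. NES in CD133+ EIF4G2KD replicate 5 was at 20.6 CPM, and the log2 fold change over CD133+ Control went from 0.76 to 0.34 without it.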

How the results depend on the processing

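The 5 genes kept their direction in CD133- EIF4G2KD over CD133- Control under every alternative that gave a value. POU3F3, PPP2R2C and NES did not pass an adjusted p of 0.05 under any of them, and BAHCC1 and CHST13 are a description in this comparison. With only the 2 CD133- populations in the fit, BAHCC1 and CHST13 did not pass the filter and had no value. Leaving out single libraries moved BAHCC1 from 6.05 to 7.17 in CD133+ EIF4G2KD over CD133+ Control and from 2.28 to 3.51 in CD133- Control over CD133+ Control, both highest without CD133+ Control replicate 4, and CHST13 from -3.72 (without CD133- EIF4G2KD replicate 5) to -2.67 in CD133- EIF4G2KD over CD133+ EIF4G2KD. The number of genes called in the CD133- comparison was 1, and became 39 with DESeq2, 0 with limma-voom, 0 with only the 2 populations, 0 without the 4 libraries that stood apart (added after seeing the data) and 0 to 59 without single libraries, with 59 without CD133- Control replicate 2. With the replicate block it was 80, and in the CD133+ comparison 1025 against 619 without the block. Deviations of same-numbered libraries had a median correlation of 0.418 against -0.0944 for other pairs, and 12 of 19 libraries correlated best with their own number, a hint of pairing from the data. Of 27 same-numbered pairs 24 correlated above 0.1 (lowest -0.23). The block was left out of the reported fit because the labels do not say what a number marks, so the reported calls rest on a fit without pairing. The cause of the changes in the number of genes called was not tested. Counts under 5 per library limit BAHCC1, PANTR1 and POF1B in CD133+ Control.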
